A study of Mus musculus with 12 samples.

Results

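Mouse liver kept for 3 h at room temperature after death was compared with liver taken at 0 h, immediately after death, in arrays of fresh-frozen (FF) and of formalin-fixed paraffin-embedded (FFPE) tissue. The comparison used 4 of the 12 arrays of the study, chosen by tissue and time in the labels and paired by preservation, and followed 45037 of 45141 probe sets, the rest being array controls. The study measured brain and liver at 0 h, after 3 h at room temperature and after 18 h at 4 °C, in both preservations, with 1 array for each of the 12 conditions.

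The FF liver at 3 h and the FFPE liver at 3 h, like the FF liver and the FFPE liver at 0 h, came from male BALB/c mice aged 10 weeks, with no genetic change or drug treatment given in the labels. FF pieces went into RNAlater before freezing, and their RNA was amplified from the 3' end by in vitro transcription. FFPE pieces were fixed in 10% formalin for 24 h, kept as blocks for 7 d and cut at 10 µm, and their RNA was amplified over whole transcripts with a kit made for such material. Preservation and labelling kit changed together, so FF and FFPE levels were not compared with each other. The labels say neither how many animals stand behind an array nor whether the FF and FFPE pieces of a time came from the same animals. The p-values below therefore measure the spread between arrays, which may be technical, and not the spread between animals.

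Liver is mostly hepatocytes, which make plasma proteins, bile acids and lipids and conjugate foreign compounds. Between them run sinusoids lined by a perforated endothelium and patrolled by Kupffer cells, the resident macrophages of the liver, which take up particles, old red cells and immune complexes. After death the blood flow stops and oxygen and heat are lost, while transcription and RNA decay can go on for some time.

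The arrays carried the identity of liver at both times. The 18 hepatocyte markers tested, such as albumin (Alb), had a median difference of 0.02 on the log2 scale between 3 h and 0 h, and none passed the test. Alb read 13.09 at 3 h against 13.09 at 0 h in FF, and 12.90 against 12.80 in FFPE, in log2 intensity, the unit of every level below. Array medians were 4.65 at 3 h against 4.65 at 0 h in FF, and 4.80 against 4.80 in FFPE. Arrays have no sequencing depth, and their number limits the precision here. The 3' minus 5' gap of the Gapdh control probe sets, a sign of RNA breakage, was 0.82 at 3 h against 0.03 at 0 h in FF, and 1.63 against 1.04 in FFPE. For Actb the gap was 2.00 at 3 h against 1.09 at 0 h in FF, and −0.01 against −0.12 in FFPE. For Pcx it was 5.48 at 3 h against 5.10 at 0 h in FF, and 2.23 against 2.75 in FFPE. The part of RNA breakage in the results below was not tested.

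At 3 h, 72 of 29688 tested probe sets differed from 0 h, which is 0.243% of those tested, 23 being higher (0.0775%) and 49 lower (0.165%). A call needed an adjusted p under 0.05 in limma and equal signs in the FF and FFPE pairs. The p threshold alone passed the same 72, so the condition on signs removed none. Among these, 51 carried 1 gene and together named 43 genes, 11 higher and 32 lower, while 21 carried no single gene. The increases were led by globin transcripts, Atxn1, the bile acid transporter Slc10a2 and Bcl6. The decreases were led by Scd1, Onecut1, Gsta2 and a group of Kupffer cell genes. The mean change was at least 2-fold for 48 of the 72, and the smallest called change was 0.80 on the log2 scale. The spread that gave these calls was shared with the brain and 18 h arrays. With the 6 liver arrays alone or the 4 liver arrays at 3 h and 0 h alone, limma called 0 probe sets, with 1708 and 2648 at an unadjusted p under 0.05 against 2672 with all 12 arrays.

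The FF and FFPE pairs gave related but loose pictures of the same interval. Over all tested probe sets, 56.1% moved with the same sign in both, 8292 upward and 8359 downward, and the changes correlated across probe sets with r = 0.297, where probe sets are not independent replicates. The changes had an SD over probe sets of 0.274 in FF and 0.278 in FFPE. At least 2-fold differences in both pairs, a description without a test, were found for 13 higher (0.0438%) and 21 lower probe sets (0.0707%), and 30 of these 34 were also called. Whatever the other pair did, the same size was reached by 44 higher and 109 lower probe sets in FF, and by 75 higher and 96 lower in FFPE. These counts include the 34 that reached it in both pairs. No probe set moved 2-fold in opposite directions.

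**Figure D1:**
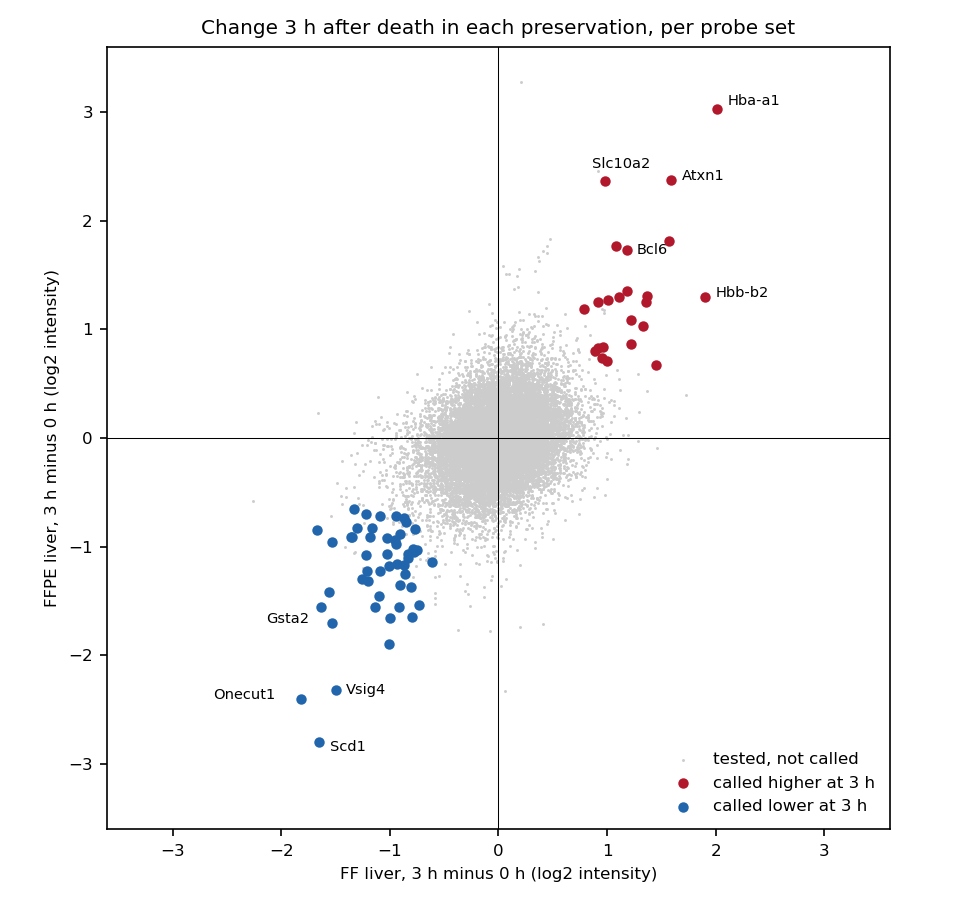
Change at 3 h against 0 h in log2 intensity for each of the 29688 tested probe sets, FF pair on the x axis and FFPE pair on the y axis. Red points are the 23 called higher and blue points the 49 called lower at 3 h. All 72 lie in the 2 quadrants where both pairs agree in sign, which a call required.

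Globin transcripts showed the largest increase. Hba-a1, which encodes the alpha chain of adult haemoglobin and lies on chromosome 11, read 11.36 at 3 h against 9.35 at 0 h in FF, and 10.31 at 3 h against 7.28 at 0 h in FFPE. The mean change was 2.52 ± 0.20 (SE) on the log2 scale, 5.74-fold, with an adjusted p of 0.000584 in limma. All 3 of its probe sets passed. Hbb-b2, a beta chain, read 7.84 at 3 h against 5.94 at 0 h in FF, and 7.64 against 6.34 in FFPE, a change of 1.60 ± 0.17 (adjusted p = 0.00236). Of its other probe sets, 1 also passed with a change of 1.30, and the other gave 1.06 (adjusted p = 0.181). Globin genes come as near-identical copies, so a probe set cannot be tied to 1 copy. Hba-a1 and Hbb-b2 were the 2 of 5 tested genes of the erythroid list that were called higher, and none was called lower. Over the 13073 genes, each represented by 1 probe set, 0.0765% were called higher. The list was chosen with earlier results of these data known, so these counts are a description and not an independent test. In the list Hba-a1 is represented by its brightest probe set, which changed by 1.42 ± 0.20, and Hbb-b2 by the one that changed by 1.30. By these probe sets none of the 5 was called without the FFPE liver 3 h array, and 1 was without the FFPE liver 0 h array, whereas the Hba-a1 probe set printed first was called without either. Alas2, the first enzyme of haem synthesis in red cell precursors, read 9.23 at 3 h against 9.12 at 0 h in FF, and 9.12 against 9.04 in FFPE. Bpgm, which makes the red cell regulator of oxygen release, changed by 0.20 (adjusted p = 0.819), and Epb42, a membrane skeleton protein, by −0.26 (adjusted p = 0.658). In bulk tissue, more or fewer cells of a type and more or less RNA per cell cannot be told apart.

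Atxn1, which encodes ataxin-1, a nuclear protein that binds RNA and transcriptional repressors, rose to 8.03 at 3 h, against 6.44 at 0 h, in FF and to 7.46, against 5.08, in FFPE. That is a change of 1.98 ± 0.25, or 3.96-fold (adjusted p = 0.00732). A second Atxn1 probe set also passed with 1.34, and the other gave 0.22 (adjusted p = 0.745). Bcl6, a transcriptional repressor that in mouse liver acts on sex-biased and lipid genes, read 8.59 at 3 h against 7.41 at 0 h in FF, and 8.19 against 6.46 in FFPE. Its change was 1.46 ± 0.20 (adjusted p = 0.0111), and its other probe set gave 0.51 (adjusted p = 0.592). For the first probe set given of each gene the 3 h array lay above the 0 h array in each preservation, which a call required.

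Slc10a2, Slco1a4 and Mfsd2a, which encode membrane carriers, rose. Slc10a2, the apical sodium-dependent bile acid transporter, was at 5.49 at 3 h against 4.51 at 0 h in FF, and at 7.44 against 5.07 in FFPE, a change of 1.67 ± 0.25 (adjusted p = 0.0197). Its second probe set passed as well, with 8.70 at 3 h against 7.91 at 0 h in FF and 6.42 against 5.23 in FFPE. Slco1a4, an uptake carrier for bile acids and other organic anions, read 8.18 at 3 h against 6.96 at 0 h in FF, and 6.77 against 5.68 in FFPE, a change of 1.16 ± 0.14 (adjusted p = 0.00562). Mfsd2a, a carrier of lysophosphatidylcholine, differed by 0.84 ± 0.14 (adjusted p = 0.0338). Slco1a4 was the called member of the list of bile acid synthesis and transport. In that list 1 of 17 tested genes was called higher and none lower, and the median was 0.08. Cyp7a1, the rate-limiting enzyme of bile acid synthesis, read 9.14 at 3 h against 8.94 at 0 h in FF, and 8.27 against 7.52 in FFPE (adjusted p = 0.434).

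Tfrc, the transferrin receptor through which cells take up iron, read 8.59 at 3 h against 7.48 at 0 h in FF, and 7.87 against 6.57 in FFPE, 2.31-fold (1.20 ± 0.13 on the log2 scale, adjusted p = 0.00354). Another tested Tfrc probe set gave 0.34 (adjusted p = 0.65). In the iron handling list, Tfrc was the 1 of 16 tested genes called higher and none was called lower. The median was −0.09, with 6 genes above 0 and 10 below. Gsn, which encodes the actin-severing protein gelsolin, read 6.65 at 3 h against 5.47 at 0 h in FF, and 6.51 against 5.16 in FFPE, a change of 1.26 ± 0.17 (adjusted p = 0.0087). It is measured by 5 probe sets, of which 1 passed and 1 had the opposite sign. Per2, a repressor of the circadian clock, was at 7.00 at 3 h against 6.08 at 0 h in FF, and at 5.0 against 4.17 in FFPE (0.88 ± 0.15, adjusted p = 0.0345). The FFPE level at 0 h lay below the array median. A second Per2 probe set gave 0.29 (adjusted p = 0.584 in limma). Per2 was the 1 of 16 tested clock genes called higher, none was called lower, and the list median was −0.13, with 6 genes above 0 and 10 below. Nop56, a core protein of the small nucleolar particles that methylate ribosomal RNA, changed by 0.86 ± 0.15 (adjusted p = 0.0455). These genes complete the 11 called higher.

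Among the decreases, Scd1 had the largest change. It encodes the desaturase that makes oleate and palmitoleate, and lies on chromosome 19. It read 4.37 at 3 h against 6.02 at 0 h in FF, and 7.31 at 3 h against 10.11 at 0 h in FFPE, 4.68-fold lower (−2.23 ± 0.23, adjusted p = 0.00219). The FF level at 3 h lay below the array median. The second Scd1 probe set, at higher levels, also passed and was 2.34-fold lower, with 9.74 at 3 h against 10.54 at 0 h in FF and 9.24 against 10.89 in FFPE. Scd1 was the 1 of 14 tested genes of fatty acid synthesis that was called lower, and the list median was 0.10. Onecut1, the hepatocyte transcription factor HNF6, read 5.14 at 3 h against 6.96 at 0 h in FF, and 6.05 against 8.45 in FFPE, 4.32-fold lower (−2.11 ± 0.17, adjusted p = 0.000584). Its other probe set passed too, with a change of −1.10. Onecut1 and Bcl6 both sit in the list of the growth hormone and STAT5 axis. There 1 of 14 tested genes was called higher and 1 lower, and the median was 0.09.

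Gsta2, a glutathione transferase of the alpha class, read 7.96 at 3 h against 9.49 at 0 h in FF, and 8.33 against 10.03 in FFPE, 3.06-fold lower (−1.61 ± 0.14, adjusted p = 0.000961). The Gsta genes are close copies, so the probe set may also read a relative. A second Gsta2 probe set passed with −1.13 and stood for the gene in the list of glutathione and phase II conjugation. In that list 1 of 18 tested genes was called lower and none higher. Of the 18, 16 had a change below 0 and the median was −0.23, against a median of 0.00 over all genes tested. Gstm3, of the mu class, came close, with 7.25 at 3 h against 7.97 at 0 h in FF and 6.77 against 7.88 in FFPE (adjusted p = 0.0631).

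Several other liver genes fell. Csad, the enzyme that makes hypotaurine on the way to taurine, read 7.40 at 3 h against 8.40 at 0 h in FF, and 6.37 against 8.03 in FFPE (−1.33 ± 0.20, adjusted p = 0.0184). It was the 1 of 16 tested genes of amino acid and taurine metabolism that was called lower. Cirbp, a cold-inducible RNA-binding protein, read 5.89 at 3 h against 7.09 at 0 h in FF, and 5.69 against 7.01 in FFPE, 2.39-fold lower (−1.26 ± 0.16, adjusted p = 0.00749). It was the 1 of 3 genes of its list to pass. Fitm1, a protein of lipid droplet formation, fell by 1.06 on the log2 scale (adjusted p = 0.0333). B3galt1, a galactosyltransferase, read 4.45 at 3 h against 5.98 at 0 h in FF, and 5.90 against 6.86 in FFPE (adjusted p = 0.0338). Rgs5, a regulator of G protein signalling known from pericytes, read 4.51 at 3 h against 5.73 at 0 h in FF, and 5.24 against 6.32 in FFPE (adjusted p = 0.00749). Sulf2, an extracellular heparan sulfatase, changed by −1.14 ± 0.18 (adjusted p = 0.0285).

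**Figure D2:**
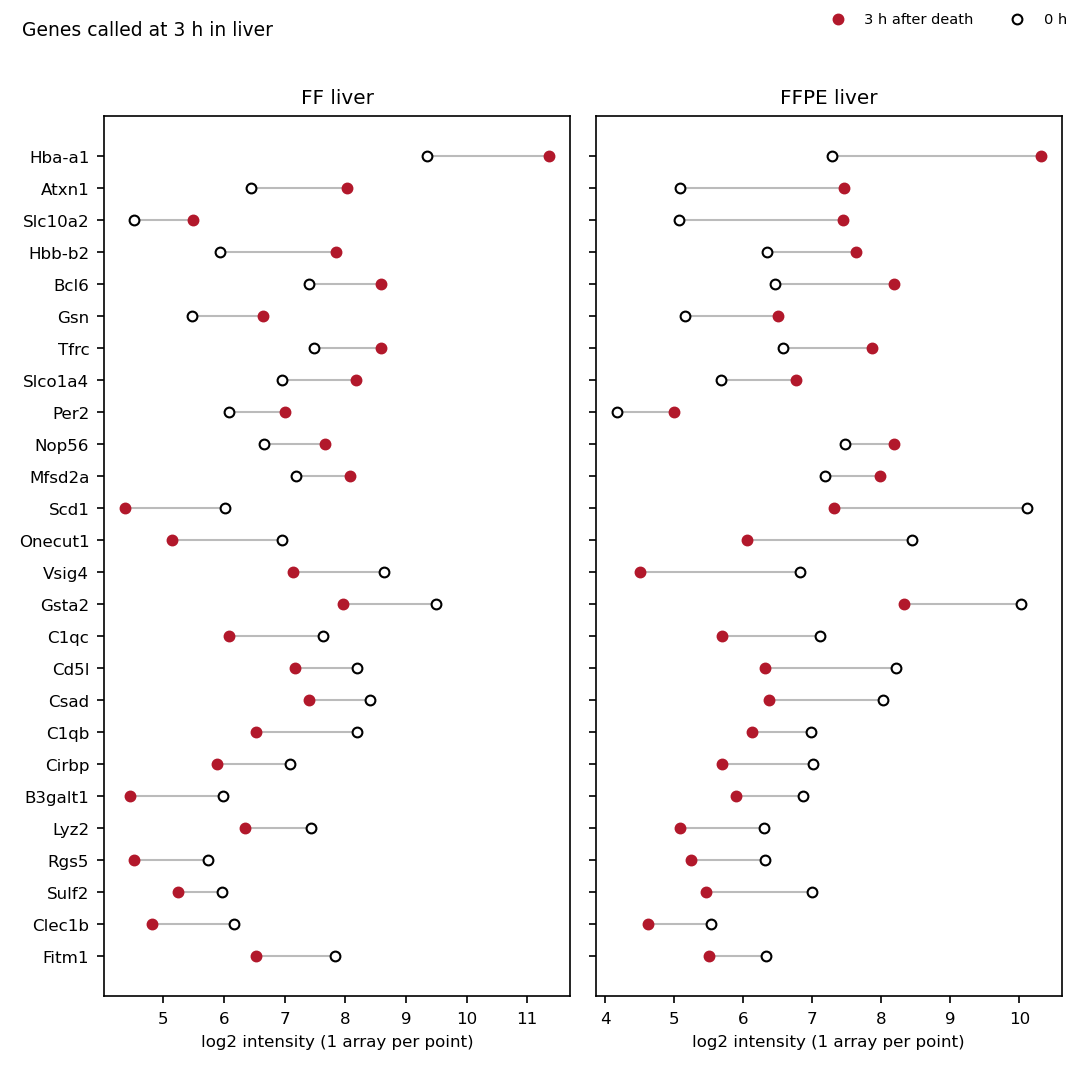
Level of the 26 named genes in log2 intensity on the x axis, 1 array per point, FF liver on the left and FFPE liver on the right, with filled red points for 3 h and open points for 0 h joined by a line. The first 11 genes are higher at 3 h in both panels and the other 15 lower, which a call required, from Hba-a1 with the largest increase to Fitm1.

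Genes of Kupffer cells fell together. Of the 15 tested genes of the Kupffer cell list, 7 passed and all 7 were lower at 3 h, against 0.145% lower calls over the same 13073 genes. The list was chosen with earlier results of these data known, so these counts are a description and not an independent test. The list median was −1.02, with −1.01 in FF and −0.85 in FFPE, against 0.00 over all genes tested. Of the 15 tested genes, 15 had a mean change below 0. The count of 7 was 1 without the FF liver 3 h array, 2 without the FFPE liver 3 h array, 2 without the FFPE liver 0 h array, 5 without the FF liver 0 h array, 9 without an 18 h liver array and 3 or 4 without 1 brain array, with a median between −0.88 and −1.06 each time. It was 4 after quantile normalization of the 12 arrays. Leaving out a brain or an 18 h array left the median at −1.02, as the estimate does not draw on them. Markers of other cells of the liver gave smaller medians, −0.56 for 13 genes of the sinusoidal endothelium, −0.19 for 12 genes of stellate cells and matrix, −0.03 for 5 genes of neutrophils and monocytes, −0.04 for 7 genes of lymphocytes and 0.02 for hepatocytes. Of these lists none had a called member by its representative probe set, at an adjusted p threshold of 0.05 in limma. Levels left some of these markers little room to move. Camp, of the neutrophil list, read 4.13 at 3 h against 4.17 at 0 h in FF, below the array median. Jchain, of the lymphocyte list, was higher, with 7.68 against 8.03 in FF. Alb read 13.09 at both times in FF, near the highest deposited value of 13.44. The small medians therefore do not make the fall particular to Kupffer cells.

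The Kupffer cell genes cover receptors, complement and lysosomal enzymes. Vsig4, a complement receptor by which Kupffer cells catch circulating particles, read 7.14 at 3 h against 8.64 at 0 h in FF, and 4.50 at 3 h against 6.82 at 0 h in FFPE, 3.76-fold lower (−1.91 ± 0.21, adjusted p = 0.00343). C1qc and C1qb, chains of the complement trigger C1q, were both called. C1qc read 6.08 at 3 h against 7.64 at 0 h in FF, and 5.69 against 7.11 in FFPE (−1.49 ± 0.18, adjusted p = 0.00641). C1qb read 6.53 at 3 h against 8.20 at 0 h in FF, and 6.13 against 6.98 in FFPE (−1.26 ± 0.20, adjusted p = 0.027). The remaining chain, C1qa, read 6.73 at 3 h against 8.06 at 0 h in FF, and 4.70 against 5.76 in FFPE, and missed the threshold (adjusted p = 0.0529). Cd5l, a secreted protein of tissue macrophages, was at 7.18 at 3 h against 8.19 at 0 h in FF, and at 6.31 against 8.21 in FFPE (−1.46 ± 0.22, adjusted p = 0.0235). Lyz2, macrophage lysozyme, read 6.34 at 3 h against 7.43 at 0 h in FF, and 5.08 against 6.30 in FFPE (−1.16 ± 0.16, adjusted p = 0.0161).

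Fcna, a ficolin that binds sugars on microbes, was the next of the list, with 7.56 at 3 h against 8.59 at 0 h in FF, and 6.44 against 7.51 in FFPE (adjusted p = 0.0161). Clec4f, a lectin found in mouse on Kupffer cells, read 7.49 at 3 h against 8.36 at 0 h in FF, and 7.11 against 8.28 in FFPE (adjusted p = 0.0345). Clec1b, a lectin receptor of platelets and mouse Kupffer cells that is not in the list, read 4.82 at 3 h against 6.17 at 0 h in FF, and 4.62 against 5.53 in FFPE (−1.13 ± 0.19, adjusted p = 0.0345). The uncalled members included macrophage receptors with changes of −0.72 for Folr2, −0.66 for Cd163 and −0.63 for Csf1r. Marco, another scavenger receptor, was at low levels and changed by −0.01 (adjusted p = 0.993). Every called gene of the list had both 3 h arrays below the 0 h array of the same preservation, which a call required.

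In the sinusoidal endothelium list, 13 of 13 tested genes had a mean change below 0, and none of their representative probe sets was called. Mrc1, the mannose receptor, read 7.22 at 3 h against 7.90 at 0 h in FF, and 6.06 against 7.04 in FFPE (adjusted p = 0.0613). Stab2, a hyaluronan scavenger receptor, read 6.72 at 3 h against 7.69 at 0 h in FF, and 5.56 against 6.12 in FFPE (adjusted p = 0.177). Clec4g, a lectin of these cells, gave −0.74 (adjusted p = 0.0716). Other probe sets of 2 list genes passed, namely one for Fcgr2b, an inhibitory Fc receptor (−0.90), and one for Dnase1l3, a secreted DNase (−1.06).

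**Figure D3:**
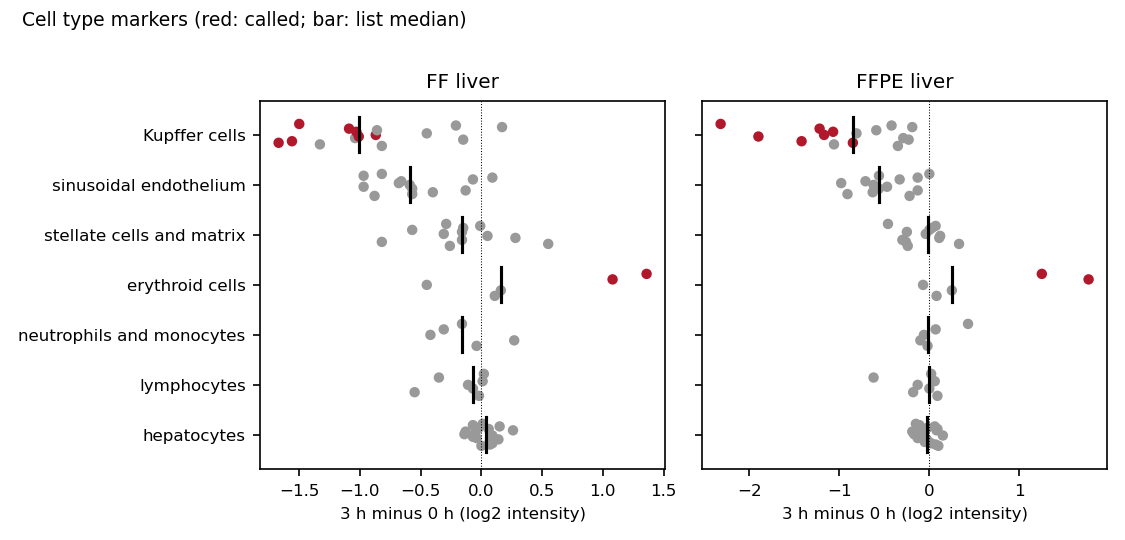
Change at 3 h against 0 h in log2 intensity (x axis) for each tested marker gene of 7 cell type lists (rows), FF pair on the left and FFPE pair on the right, on different x scales. Red points are called genes, grey points are not called, and black bars are list medians. The Kupffer cell bars stand at −1.01 in FF and −0.85 in FFPE, and the hepatocyte bars near 0.

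The promoters of 4 called Kupffer cell genes are shown because these genes fell together and macrophage promoters are known to be bound by the transcription factor PU.1, whose site carries a purine-rich core. The windows are the 250 bases before the gene start from RefSeq, build GRCm38.p6, written 5′ to 3′ on the gene's strand. Capitals mark GAGGAA, or TTCCTC for the same letters on the opposite strand. The positions are chr4:136886201-136886450 (minus strand) for C1qb, chr4:136892915-136893164 (minus strand) for C1qc, chrX:96293439-96293688 (minus strand) for Vsig4 and chr3:87357631-87357880 (plus strand) for Cd5l.
C1qb: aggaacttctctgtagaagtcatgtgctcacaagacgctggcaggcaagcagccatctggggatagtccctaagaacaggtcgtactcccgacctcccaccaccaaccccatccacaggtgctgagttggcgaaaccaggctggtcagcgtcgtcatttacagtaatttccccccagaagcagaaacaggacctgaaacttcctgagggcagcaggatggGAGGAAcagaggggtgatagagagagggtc
C1qc: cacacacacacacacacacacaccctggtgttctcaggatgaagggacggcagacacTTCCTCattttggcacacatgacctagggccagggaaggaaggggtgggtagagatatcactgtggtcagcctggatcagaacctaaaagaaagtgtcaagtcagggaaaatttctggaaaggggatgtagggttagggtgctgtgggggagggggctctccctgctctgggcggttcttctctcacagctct
Vsig4: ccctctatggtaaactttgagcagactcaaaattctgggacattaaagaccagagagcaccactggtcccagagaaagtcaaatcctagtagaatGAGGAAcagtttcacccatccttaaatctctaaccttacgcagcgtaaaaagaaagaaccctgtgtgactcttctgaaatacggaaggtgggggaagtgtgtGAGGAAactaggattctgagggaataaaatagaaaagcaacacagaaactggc
Cd5l: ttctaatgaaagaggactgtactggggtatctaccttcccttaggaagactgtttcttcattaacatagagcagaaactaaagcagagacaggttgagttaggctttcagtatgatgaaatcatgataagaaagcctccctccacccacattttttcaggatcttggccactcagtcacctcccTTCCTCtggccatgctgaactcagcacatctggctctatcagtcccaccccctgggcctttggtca
The letters occurred in the windows of 5 of the 7 called Kupffer cell genes, the 4 shown and Fcna, and not in those of Clec4f and Lyz2. They occurred in 23.3% of the 32851 promoter windows of the RefSeq table. A part of PU.1 in the decreases was not tested. A match is a description of the sequence and not a measured binding site.

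The called decreases also held 17 genes with changes of −0.80 to −1.06, which lie outside the naming rule unless a list holds them and are given to complete the set. Besides Clec4f, Fcna, Fcgr2b and Dnase1l3 they include Ctss, a lysosomal protease of antigen-presenting cells, which read 7.68 at 3 h against 8.46 at 0 h in FF, and 6.08 against 7.13 in FFPE. Txnip, an inhibitor of thioredoxin, read 5.62 at 3 h against 6.78 at 0 h in FF, and 6.64 against 7.47 in FFPE. Cap1 and Capza2 act on actin filaments, Aqp9 is the glycerol channel of hepatocytes, Pex19 serves peroxisome assembly and Pmm2 makes mannose phosphate for glycosylation. The others were Ddah1, Dpp7, Klhl24, Marcks, Ptgr2 and Rabggtb.

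Probe sets of the same gene did not always move together. Of the 43 called genes, 16 had 1 tested probe set and 27 had several. Of these 27, 5 had every tested probe set called and 6 had at least 1 with the opposite sign, namely Cap1, Capza2, Dpp7, Gsn, Ptgr2 and Rgs5. With each gene represented by its brightest probe set, Gsn gave 1.06 (adjusted p = 0.123), B3galt1 −0.60 (adjusted p = 0.379), Rgs5 −0.38 (adjusted p = 0.523) and Sulf2 −0.23 (adjusted p = 0.825), so these 4 of the 26 named genes lost their call.

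**Figure D4:**
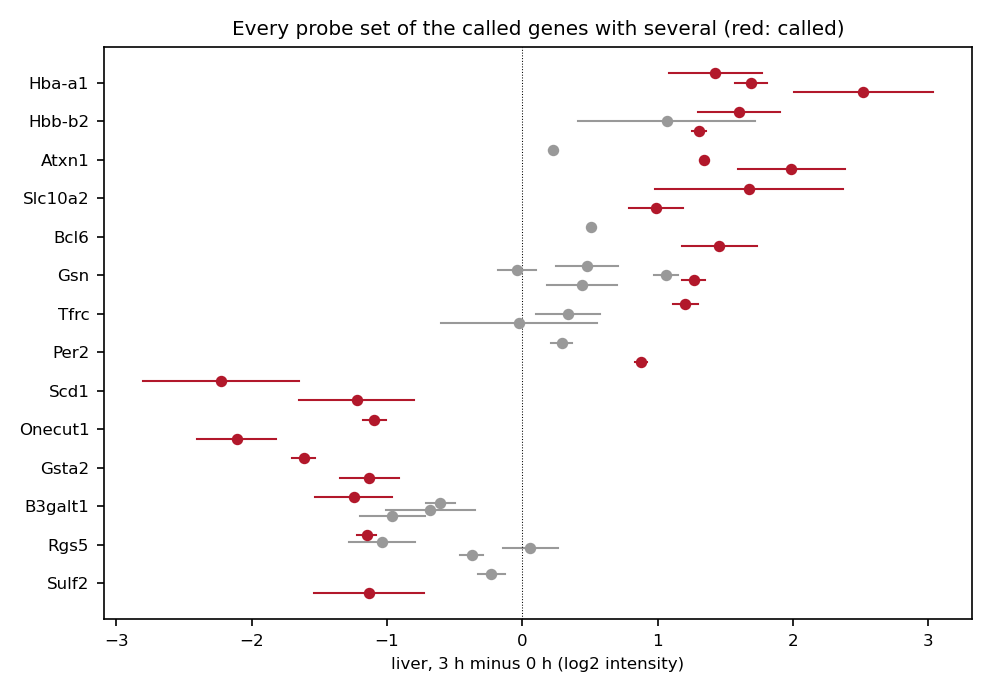
Mean change at 3 h against 0 h in log2 intensity (points, x axis) for every probe set of 14 called genes with more than 1, with a line from the FF to the FFPE change. Red marks called probe sets and grey those not called. Hba-a1, Slc10a2, Scd1, Onecut1 and Gsta2 are red throughout, while Gsn, Tfrc, B3galt1 and Rgs5 are mostly grey.

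Most gene groups differed little between 3 h and 0 h. With each gene represented by its brightest probe set, 10 of 37 lists had a called member and 27 had none. By any probe set of a member, 13 lists had a call, the 3 further ones being sinusoidal endothelium (Fcgr2b and Dnase1l3), stellate cells and matrix (Rgs5), and metallothionein and oxidative stress (Txnip). Apart from the Kupffer and sinusoidal lists, the other 35 had medians between −0.23 and 0.20 against 0.00 over the 13073 genes. Hypoxia genes had a median of −0.18 over 16 genes with none called. Pgk1, a glycolytic enzyme, read 9.66 at 3 h against 10.15 at 0 h in FF, and 9.79 against 10.30 in FFPE (adjusted p = 0.26). Immediate early genes had a median of 0.04 over 21 genes with none called, and Dusp1, a phosphatase that switches off MAP kinases, read 8.27 at 3 h against 7.45 at 0 h in FF, and 6.76 against 6.57 in FFPE (adjusted p = 0.4). Some members were at low levels in liver and passed the filter through brain arrays. Fos read 4.05 at 3 h against 4.31 at 0 h in FF liver, and 4.06 against 4.08 in FFPE liver, below the array medians. The list median therefore says little about such members.

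Heat shock genes had a median of 0.16, and none of 10 passed. Hspa1b, an inducible HSP70, read 9.56 at 3 h against 8.64 at 0 h in FF, and 7.90 against 5.44 in FFPE, a change of 1.69 ± 0.35 (adjusted p = 0.0879). The change of this Hspa1b probe set was 0.92 in FF and 2.46 in FFPE. Other tested probe sets of the gene gave 0.33 (adjusted p = 0.873 in limma) and 0.85 (adjusted p = 0.248). Hspb1, a small heat shock protein, gave 0.58 (adjusted p = 0.195). Cytochrome P450 genes (median 0.00 over 21), cytosolic ribosomal proteins (−0.04 over 62), the nuclear-encoded respiratory chain (−0.04 over 44), cytokines (−0.02 over 12) and apoptosis genes (−0.03 over 14) had no called member. In the proteasome list 23 of 30 genes were below 0 with a median of −0.17 and none called, the lowest being Psmd7 with −0.53 (adjusted p = 0.197).

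**Figure D5:**
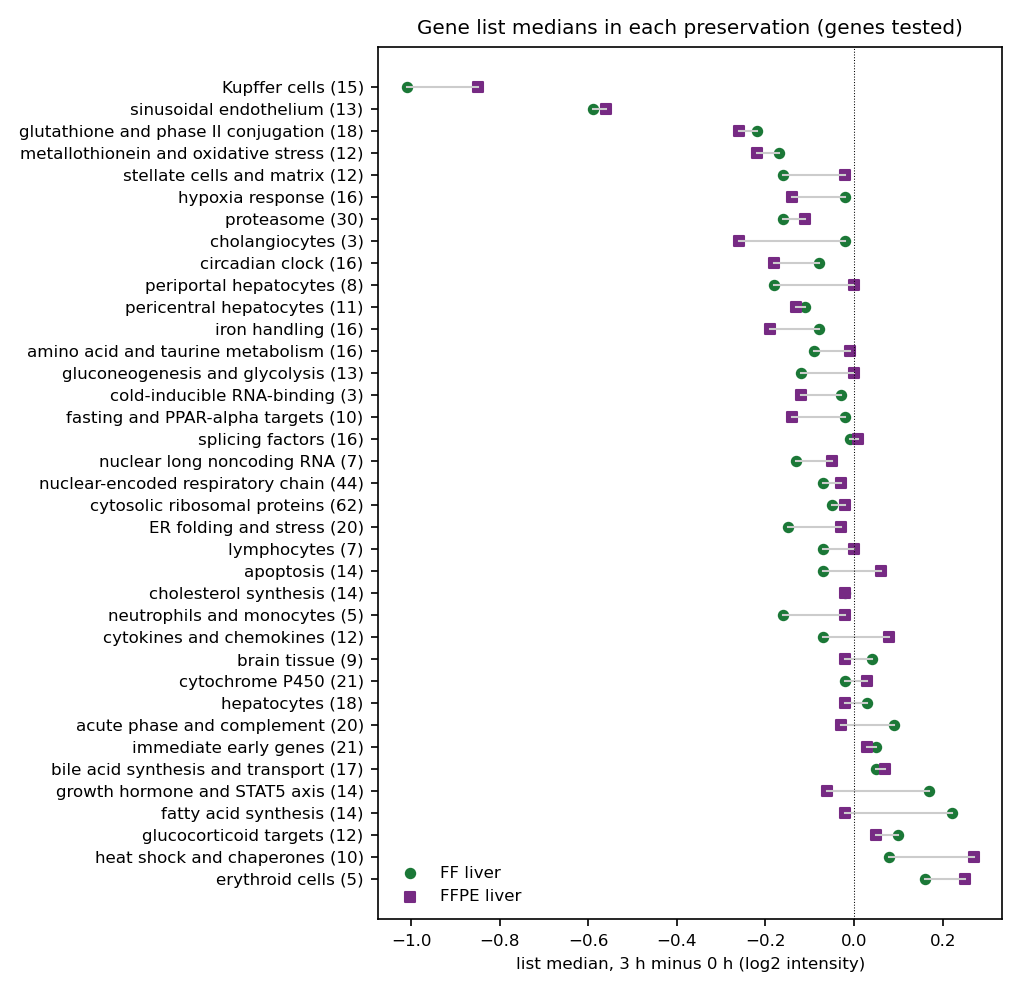
Median change at 3 h against 0 h in log2 intensity (x axis) of 37 gene lists (rows, genes tested in brackets), green circles for the FF pair and purple squares for the FFPE pair. Kupffer cells and sinusoidal endothelium stand apart at the low end, and the other 35 lists lie near 0.

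The change at 3 h was set against that in brain by testing the difference itself. It passed for 18 probe sets (0.0606%), 5 with a more positive and 13 with a more negative change in liver, and 6 of the 72 liver calls were among them. The other 12 were not called in liver, and 11 of them were called in brain. Those with a gene, chosen after their values were seen, include Ttr, the carrier of thyroid hormone made in liver and in the choroid plexus of the brain, and Mup3, a urinary protein made in liver. Ttr read 12.72 at 3 h against 8.68 at 0 h in FF brain, and 12.52 against 5.77 in FFPE brain, so that the liver minus brain difference was −5.46 ± 0.67 (adjusted p = 0.0128) at a liver change of −0.07. Mup3 had a brain change of −3.18 and a liver change of 0.02. The hepatocyte list had a median change of −0.78 in brain, and Alb read 6.11 at 3 h against 8.74 at 0 h in FF brain, and 7.03 against 7.57 in FFPE brain. The part of these transcripts of brain arrays in the differences was not tested. The 6 called in liver were probe sets of Hba-a1, Scd1, Onecut1 and Gsta2 and 2 probe sets with no single gene. The liver minus brain difference was 2.20 ± 0.29 for Hba-a1 (adjusted p = 0.019) and −2.42 ± 0.32 for Scd1 (adjusted p = 0.0224). It was −1.99 ± 0.24 for Onecut1 (adjusted p = 0.0128) and −1.68 ± 0.20 for Gsta2 (adjusted p = 0.0128). Each of these 4 genes also had called liver probe sets that missed the threshold in the same limma test. Their adjusted p was 0.063 and 0.513 for Hba-a1, 0.165 for Scd1, 0.283 for Onecut1 and 0.51 for Gsta2. In brain, the Scd1 probe set that passed read 4.47 at 3 h against 4.42 at 0 h in FF, below the array medians, and 6.59 against 6.24 in FFPE. The other Scd1 probe set read 9.40 at 3 h against 9.11 at 0 h in FF brain, and 8.98 against 8.92 in FFPE brain. All 72 called probe sets had a brain change of at most 0.5 in size, but the share of all tested probe sets within that bound was not counted. In brain, 21 of the 29688 tested probe sets passed at 3 h (0.0707%). The bound therefore does not make the 72 particular to liver. For Vsig4 the difference from brain was −1.87 ± 0.30 and missed the threshold (adjusted p = 0.06), as did that for Tfrc (1.20 ± 0.19, adjusted p = 0.06).

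The liver arrays at 18 h shared the 0 h arrays with this comparison, so the values are given side by side only. The called Bcl6 probe set was at 8.59 at 3 h and 6.55 at 18 h against 7.41 at 0 h in FF, and at 8.19 and 5.21 against 6.46 in FFPE. For this probe set the 18 h arrays lay below 0 h and the 3 h arrays above. The other Bcl6 probe set read 5.13 at 18 h against 5.01 at 0 h in FF, and 6.26 against 7.42 in FFPE. Tfrc and Atxn1 were near their 0 h levels at 18 h, with differences from 0 h of −0.29 and 0.30. Vsig4 read 7.14 at 3 h and 8.29 at 18 h against 8.64 at 0 h in FF, and 4.50 and 5.42 against 6.82 in FFPE. Csad read 7.40 at 3 h and 6.88 at 18 h against 8.40 at 0 h in FF, and 6.37 and 5.52 against 8.03 in FFPE. Slco1a4 read 8.18 at 3 h and 8.19 at 18 h against 6.96 at 0 h in FF, with 6.77 at both later times against 5.68 in FFPE. Against 0 h, the Kupffer cell list had a median of −1.02 at 3 h and −0.34 at 18 h, and the sinusoidal endothelium list −0.56 at 3 h and 0.46 at 18 h. Storage temperature changed together with time, so their parts at 18 h cannot be told apart.

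When each of the 12 arrays was left out in turn, Hba-a1, Scd1, Onecut1 and Gsta2 stayed called each time. The direction held for all 26 named genes, but it had little room to change. Leaving out a brain or an 18 h array does not alter the 3 h liver estimate, only its spread. Without a 3 h or 0 h liver array the estimate rests mainly on the other pair, whose sign a call already required to be equal. Without the FFPE liver 3 h array 7 of the 26 stayed called, and without the FF liver 3 h array 10. The counts were 17 and 11 without the FF and the FFPE liver 0 h array. Per2, Nop56, Mfsd2a and Clec1b stayed called in 2 of the 12 cases, which were those without an 18 h liver array.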

How the data were processed

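Gene expression was read on MG-430 PM Array Strips, per the labels' protocols. The deposited table gives each probe set a log2 intensity in each array. Per the submitters' processing notes, the authors used Affymetrix Expression Console and its RMA method. Software versions, and whether the 12 arrays were processed together, are not given in the sources used here. RMA draws the arrays toward a common distribution, so a global loss of RNA would not show. The deposited values ran from 2.66 to 13.44.

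Control probe sets (104) were set aside. Of the remaining probe sets 28898 carried 1 gene, 551 several and 15588 none. The 29688 probe sets that reached the array's median in 3 or more of the 12 arrays were tested. Of these, 3351 reached it in none of the 4 liver arrays at 3 h and 0 h, so they passed through other arrays. limma 3.58.1 in R 4.3.3 fitted a mean for each tissue and preservation and, per tissue, a change at each later time (8 coefficients, 4 residual degrees of freedom). Tests were two-sided, and p-values were adjusted by Benjamini-Hochberg across the tested probe sets. The 3 h change is the part that the FF and FFPE pairs share.

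The 37 gene lists had 613 of 691 entries on the array, and each gene was represented by its probe set with the highest mean. The members and lists were chosen with earlier results of these data known. Genes named are the 15 largest called changes in each direction, up to 4 called members of each list or 3 as values, and the 10 largest in each direction among those 2-fold in both pairs. Normalization, filter, probe set summary, arrays used and variance model were varied.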

Additional observations from a re-analysis of the deposited data

Results flagged for a closer look

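For 1 probe set of each of 4 genes called in liver, the change at 3 h also differed between liver and brain in limma's test of the difference. In all, 18 probe sets passed that test. The other called liver probe sets of these 4 genes did not pass it. The liver minus brain difference was 2.20 for Hba-a1, −2.42 for Scd1, −1.99 for Onecut1 and −1.68 for Gsta2, on the log2 scale. Brain levels of Gsta2 were 3.63 at 3 h against 3.58 at 0 h in FF, and 3.93 against 3.85 in FFPE, below the array medians, and those of Onecut1 were 3.27 against 3.44 in FF, and 4.02 against 4.09 in FFPE. Hba-a1 read 10.13 at 3 h and 9.88 at 0 h in FF brain, and 5.97 and 5.59 in FFPE brain.

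The array's control probe sets for the transferrin receptor, which stand outside the tested probe sets, also showed a signal. In FFPE liver they were higher at 3 h than at 0 h by 0.38 at the 3' end, 0.64 in the middle and 0.83 at the 5' end. The levels were 4.62 at 3 h against 4.24 at 0 h at the 3' end, 5.11 against 4.47 in the middle and 5.79 against 4.96 at the 5' end. In FF liver the differences were −0.02, −0.01 and −0.10, at levels between 3.56 and 3.79, below the FF array median of 4.65.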

How the results depend on the processing

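With 1 array per condition, FF and FFPE stand in for replicates, and every count below comes from limma. The 72 called probe sets became 34 after quantile normalization, 34 without a filter, 32 with 1 probe set per gene, 21 with the mean of a gene's probe sets, 0 with the 6 liver arrays alone (1708 at an unadjusted p under 0.05), 0 with the 4 liver arrays at 3 h and 0 h (2648 unadjusted) and 229 without both liver 18 h arrays. All 34 calls after quantile normalization were among the 72. Leaving out 1 array gave 10 to 229 calls, with 24 without the FF liver 3 h array and 10 without the FFPE liver 3 h array. Centring, the liver filter, an intensity trend and robust variances gave 72, 70, 75 and 72. The 18 probe sets that differed between liver and brain became 4 without a filter, 2 with 1 probe set per gene, 3 with the mean of a gene's probe sets, 63 without both liver 18 h arrays and 3 to 63 on leaving out 1 array, the count being 40 without the FFPE brain 0 h array. The 34 probe sets at least 2-fold in both pairs became 205 (64 higher and 141 lower) at 1.5-fold. Of the 26 named genes 11 lost their call after quantile normalization, 12 without a filter, 11 with the mean of a gene's probe sets and 26 with the liver arrays alone, and none turned sign. Of the list medians, 1 turned sign, that of the 3 cold-inducible RNA-binding genes (0.03 with the mean of a gene's probe sets, against −0.08). Beyond fewer samples or fewer features tested, the cause of these shifts was not tested. Preservation is already a paired term of the model, and the labels give no replicate numbers to block on.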

Other observations

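Some probe sets moved in 1 preservation and hardly in the other. These were chosen after their values were seen. A probe set of Pck1, the rate-limiting enzyme of gluconeogenesis, read 9.22 at 3 h and 5.38 at 18 h against 3.94 at 0 h in FFPE, and 3.68 and 3.59 against 3.58 in FF, where it lay below the array median, and it did not pass the filter on low values. Zfp513, a zinc finger protein, read 7.94 at 3 h against 4.66 at 0 h in FFPE, and 5.98 against 5.77 in FF. Cbx7, a Polycomb protein, read 4.71 at 3 h against 7.04 at 0 h in FFPE, and 3.73 against 3.67 in FF. Slco1b2, a liver uptake carrier for organic anions, read 6.09 at 3 h against 8.35 at 0 h in FF, and 10.89 against 11.47 in FFPE. Zbtb7b, a transcription factor, read 7.40 at 3 h against 5.94 at 0 h in FF, and 5.58 against 5.67 in FFPE. Each of these rests on 1 array per time.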
